A study of Mus musculus with 10 samples.

Results

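The 10 genes described here make versican and the other proteoglycans that carry chondroitin or dermatan sulfate, or build those sugar chains. They were picked from the peak lists themselves, because Vcan, the versican gene, held very long coding peaks and Chpf was an example of the study, so the numbers of their peaks are given as a description. A peak belonged to a gene when both of its ends lay in exons of 1 transcript of that gene on the same strand of the mm10 genome. The members were 10 of the 21924 protein-coding genes in the annotation, and they held 16 of 2824 peaks in growth-arrested DMSO preadipocytes, 17 of 5128 at the DMSO mitotic clonal expansion (MCE) stage, 26 of 2944 at the DMSO differentiation stage and 20 of 3069 after rhein treatment.

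Versican is a large proteoglycan of the pericellular matrix. It binds hyaluronan through its amino-terminal domain and carries chondroitin sulfate chains on its central part, which is encoded by a pair of large exons that are spliced in or out. Chondroitin sulfate starts on serines of the core protein with a linker sugar, after which N-acetylgalactosaminyltransferases (Csgalnact1, Csgalnact2) start the chain, the Chsy1, Chpf and Chpf2 proteins extend it as complexes, and sulfotransferases such as Chst11 modify it. Fibroblast-like preadipocytes make a matrix rich in such proteoglycans, and the matrix is remodelled as they turn into adipocytes.

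N6-methyladenosine (m6A) was mapped by MeRIP-seq, in which fragmented RNA is pulled down with an anti-m6A antibody and sequenced beside the input RNA, in mouse 3T3-L1 cells, an embryonic fibroblast line that becomes adipocyte-like after hormonal induction. The 5 conditions were DMSO preadipocytes (Pre), DMSO cells at the MCE stage, DMSO cells at the differentiation stage (Diff), and rhein cells at the MCE and differentiation stages. Rhein, an anthraquinone, was given at 20 µM from day 0 to day 3 of induction, and the MCE and Diff groups of both treatments had the same hormonal induction, while the Pre cells were collected before it. Each condition had 1 immunoprecipitated and 1 input library from 1 cell line, so nothing below has a replicate check and no p-value is given.

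The deposited files were peak lists without read counts, and the depth is unknown. The lists differed in length, with 5128 peaks in the DMSO MCE list and 2824 to 3071 in the others, and whether depth set these lengths was not tested. The rhein MCE and rhein Diff lists had 3067 identical peaks out of 3069 and 3071, and all 20 member peaks were the same in both, with scores that differed by at most 0.05. Such agreement would also be seen if 1 file had been deposited for both stages, so it is not known which stage the list describes. They were counted as 1 result, called rhein here, so rhein set against DMSO gives the same rhein side at both stages. Of the peaks, 96.5% to 97.6% could be placed on a transcript. As a check of the labels, none of 6 adipocyte genes (Adipoq, Fabp4, Pparg, Lpl, Plin1, Cd36) had a peak in any list, also not at the differentiation stage, and 2 of 5 preadipocyte genes had one in each list, among them Pdgfra in every list. A peak list is not a measure of expression, so this check is weak.

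Protein-coding genes with an exonic peak made up 6.83% of the annotation in the Pre list, 12.4% in the MCE list, 6.61% in the Diff list, 7.28% in the rhein MCE list and 7.29% in the rhein Diff list. Of the 10 members, 5 had a peak in the Pre list, 6 in the MCE list, 5 in the Diff list and 5 in the rhein list. Since the peaks chose the members, nothing is read from that difference. Bgn, Cspg4 and Csgalnact2 had no peak in any list, and only Vcan, Dcn and Chpf2 had one in every list. For Chpf2 this did not hold with the lists cut to equal length, which left it 0 peaks in the MCE and Diff lists, or by the listed symbol, which gave it 0 in the MCE, Diff and rhein lists.

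The sequences that the peaks kept returning to are shown first. Along the longest Vcan transcript, 775 bases lay under a peak in all 4 distinct lists, in 3 coding runs within exon 8 and 1 run of 275 bases in the 3′ UTR. The coding runs are printed 5′ to 3′ on the minus strand of chromosome 13, with GGAC, the core of the most common m6A sequence context, in capitals. They lie at chr13:89693221-89693420 (core 1), chr13:89691096-89691170 (core 2) and chr13:89689696-89689920 (core 3).
Vcan core 1: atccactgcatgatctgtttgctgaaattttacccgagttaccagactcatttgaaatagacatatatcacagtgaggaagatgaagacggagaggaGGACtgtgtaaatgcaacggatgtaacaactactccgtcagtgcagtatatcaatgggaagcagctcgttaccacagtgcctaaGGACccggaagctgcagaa
Vcan core 2: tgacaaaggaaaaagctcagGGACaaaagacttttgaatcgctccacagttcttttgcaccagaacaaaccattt
Vcan core 3: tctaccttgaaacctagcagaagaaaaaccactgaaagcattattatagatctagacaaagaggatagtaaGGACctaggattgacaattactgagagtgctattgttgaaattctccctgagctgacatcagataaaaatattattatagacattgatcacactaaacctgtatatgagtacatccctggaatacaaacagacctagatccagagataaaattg

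Core 1 held 2 GGAC sites, core 2 held 1 and core 3 held 1. Over the 4 lists, 72.7% of all placed peaks of 200 bases, 30.8% of those of 75 bases and 81.7% of those of 225 bases held a GGAC, so a match in a run as long as core 1 or core 3 was common. The wider DRACH context, searched on the transcript strand and overlapping GGAC, occurred 5, 5 and 10 times in cores 1, 2 and 3.

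In Chpf, both coding peaks of the rhein list are shown because the study used this gene as an example and the exon 5 peak was listed only after rhein treatment. They lie on the minus strand at chr1:75477507-75477631 in exon 3 and chr1:75475069-75475293 in exon 5 of a 5-exon transcript.
Chpf rhein exon 3: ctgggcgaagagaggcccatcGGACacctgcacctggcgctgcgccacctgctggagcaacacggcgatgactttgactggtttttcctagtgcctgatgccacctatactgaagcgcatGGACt
Chpf rhein exon 5: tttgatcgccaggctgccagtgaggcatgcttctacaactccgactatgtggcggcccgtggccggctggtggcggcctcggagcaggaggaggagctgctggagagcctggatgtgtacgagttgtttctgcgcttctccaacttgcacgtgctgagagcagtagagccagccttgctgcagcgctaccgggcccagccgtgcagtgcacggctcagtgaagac

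The exon 3 peak held 2 GGAC sites, and the exon 5 peak of 225 bases held neither GGAC nor DRACH. Outside Vcan, the only run under a peak in all 4 lists was in exon 4 of Chpf2, on the plus strand at chr5:24591286-24591360, and it held neither motif.
Chpf2 core: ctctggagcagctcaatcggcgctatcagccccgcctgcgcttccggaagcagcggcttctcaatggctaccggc

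Vcan (ENSMUSG00000021614.16, chr13:89655312-89742509, minus strand) had 8 exonic peaks in the Pre list, 9 in the MCE list, 19 in the Diff list and 12 in the rhein list. The exonic bases under them were 1475 in the Pre list, 1250 in the MCE list, 9231 in the Diff list and 2175 in the rhein list. The Diff list stood apart from the other 3, which lay within 1250 to 2175 bases. By covered bases Vcan was the 11th of 1729 genes with a peak in the Pre list, the 31st of 2965 in the MCE list, the 1st of 1714 in the Diff list and the 4th of 1851 in the rhein list. By number of peaks it was the 8th in the Pre and MCE lists and the 3rd in both the Diff and rhein lists. In the Diff list Vcan alone took 2.2% of all exonic bases under peaks, against 0.356%, 0.173% and 0.484% in the Pre, MCE and rhein lists.

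**Figure D1:**
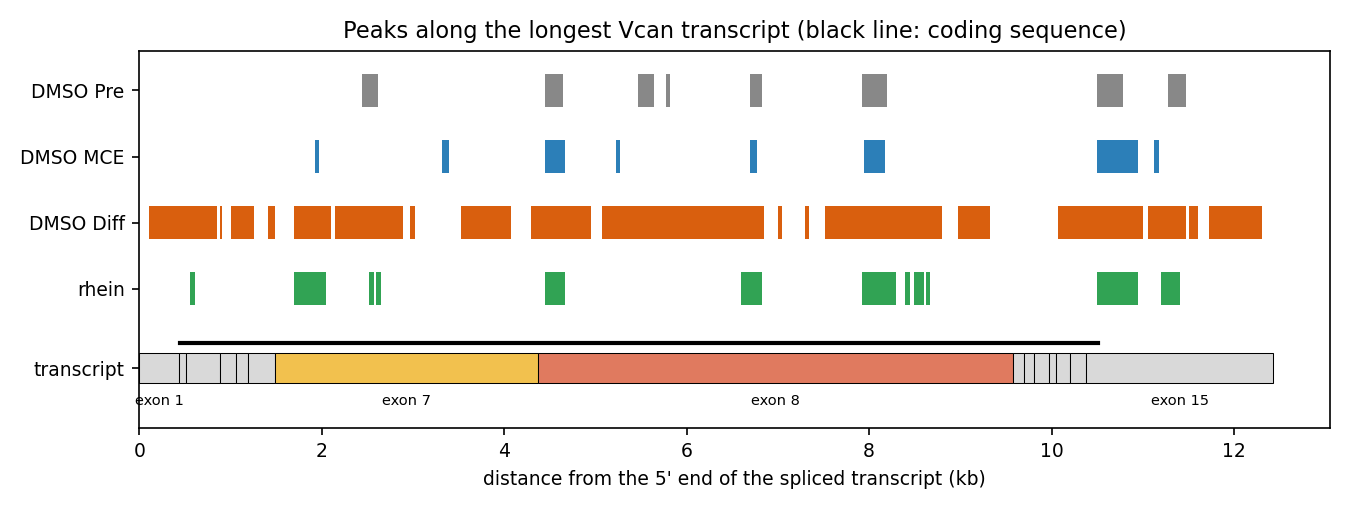
Peaks of the 4 distinct lists (rows) along the longest Vcan transcript, with the distance from its 5′ end in kb on the horizontal axis, its exons below (exons 7 and 8 coloured) and the coding sequence as a black line. The DMSO Diff row is covered over 72.7% of the transcript, and the other rows over 9.66% to 17.5%.

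The longest transcript, ENSMUST00000109546.8, has 15 exons and 12427 bases, of which 10065 are coding. It includes both large exons of the glycosaminoglycan-attachment region, exon 7 (2880 bases) and exon 8 (5217 bases). Of the other 3 long coding transcripts, ENSMUST00000159910.7 lacks exon 7, ENSMUST00000109544.8 lacks exon 8 and ENSMUST00000109543.8 lacks both. In the Diff list 63.2% of exon 7 and 78.2% of exon 8 lay under a peak. The same shares were 6.08% and 15.8% in the Pre list, 4.34% and 11% in the MCE list, and 15.6% and 19.6% in the rhein list. Both large exons had covered bases in every list, and the lists do not show which isoforms the cells made.

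Outside the large exons, the Diff list covered 75.5% of exon 1, 93.3% of exon 3, which encodes part of the hyaluronan-binding end, and 84.1% of exon 15, which holds the last coding bases and the 3′ UTR. In the Pre and MCE lists no base of exons 1 to 6 was covered, and in the rhein list 50 bases of exon 3 were the only ones. Exon 15 was covered over 23.2% in the Pre list, 24.4% in the MCE list and 31.8% in the rhein list. Exons 9 to 12, short exons after the attachment region, had no covered base in any list.

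By length, the Vcan peaks of the Diff list were among the extremes of that list. Peaks of at least 500 exonic bases made up 1.02% of placed peaks in the Pre list, 0.904% in the MCE list, 1.69% in the Diff list and 1.34% in the rhein list, and 8 of the 48 such peaks in the Diff list lay in Vcan. The Pre, MCE and rhein lists had none in Vcan, whose longest peaks there were 275, 450 and 450 bases. The longest peak of the whole Diff list was the Vcan peak at chr13:89691021-89692795 in exon 8, with 1775 bases, a score of 338 and the 2nd place of 2944 by score. Also in exon 8, the peak at chr13:89689071-89690345 had 1275 bases, a score of 194 and the 3rd place.

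The score is the deposited value of each peak and was read as the −log2 of an adjusted p-value. It is therefore no measure of how strongly a site was enriched, since it can also grow with the number of reads and the length of a peak, and ranks are compared within a list only. A peak from exon 13 to exon 15 had 931 exonic bases and the 7th place by score, and one across the junction of exons 7 and 8 had 650 exonic bases and the 10th place. At the 5′ end, a peak from exon 1 to exon 3 had 750 exonic bases and the 62nd place. At the other end of the range, the shortest Vcan peak of the Diff list had 25 exonic bases and the 1955th place. In all, 8 of the 19 Vcan peaks of the Diff list were among its first 100 of 2944. The first 100 of the other lists held 1 of 8 Vcan peaks (Pre), 4 of 9 (MCE) and 3 of 12 (rhein).

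The best-placed Vcan peak of the MCE list was in the 3′ UTR, at chr13:89656787-89657236, with 450 bases and the 25th place of 5128 (the top 0.488%). The rhein list held a peak with the same start and end, at the 69th place of 3069 (2.25%), and the Pre list held 275 bases of it at the 141st place of 2824 (4.99%). In the coding sequence, the best-placed peak of the Pre list (the 74th) and of the rhein list (the 57th) both lay over core 3. In the MCE list the peaks over cores 2 and 3 took the 33rd and 35th places. As a share of each list, the peaks over the 3 coding cores lay within the top 0.644% to 1.46% of the MCE list, 1.86% to 5.12% of the rhein list and 2.62% to 18.2% of the Pre list. These lists differ in length, so the shares are given side by side and no order is read from them.

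**Figure D2:**
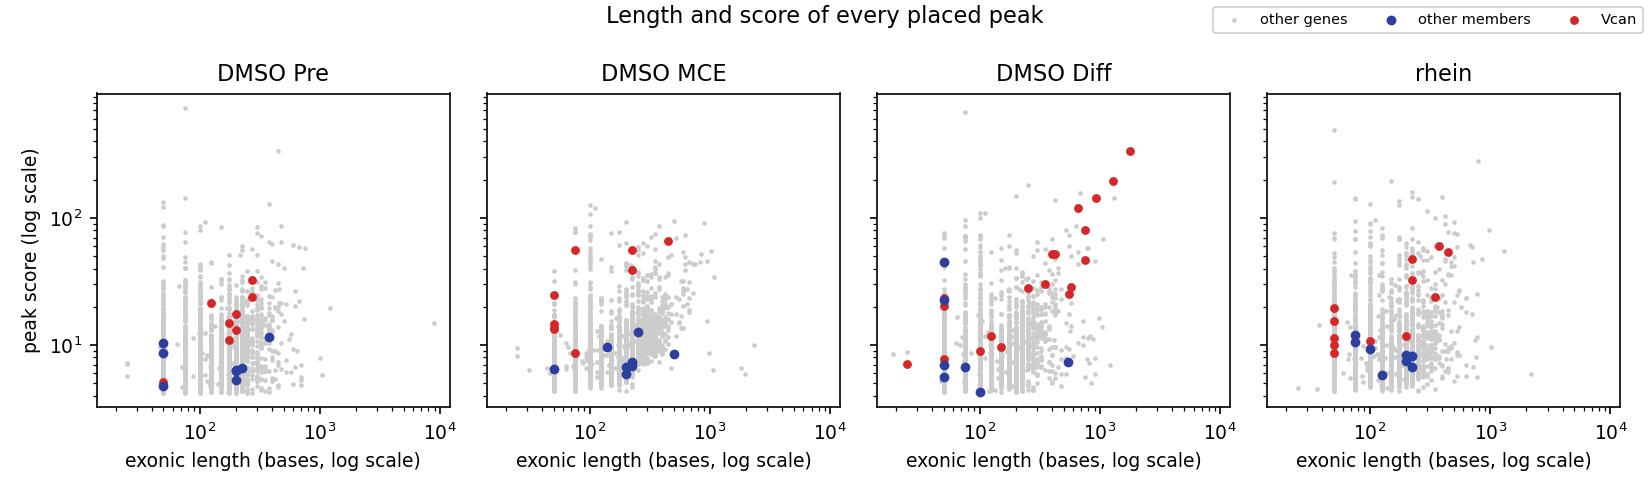
Exonic length (horizontal, bases, log scale) and score (vertical, log scale) of each placed peak in the 4 distinct lists, with Vcan in red, the other members in blue and all other genes in grey. In the DMSO Diff panel the Vcan peak of 1775 bases is the farthest to the right, while in the other panels no Vcan peak is longer than 450 bases.

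At the level of single bases, the Vcan peaks of the other lists lay wholly or mostly within those of the Diff list. All 1475 bases of the longest transcript covered in the Pre list and all 2175 covered in the rhein list were also covered in the Diff list, as were 93.8% of the 1200 covered in the MCE list. The Diff list covered 72.7% of the transcript, the share to set these values beside. In the other direction, 16.3%, 12.5% and 24.1% of the 9034 Diff bases were covered in the Pre, MCE and rhein lists. The lists with narrow peaks overlapped one another in part. Of the MCE bases, 85.4% lay under rhein peaks and 64.6% under Pre peaks. Of the Pre bases, 72.9% lay under rhein peaks and 52.5% under MCE peaks. Of the rhein bases, 49.4% lay under Pre peaks and 47.1% under MCE peaks. Bases covered in 1 list only numbered 6359 for the Diff list, 75 for the MCE list and 0 for the Pre and rhein lists.

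A few Vcan peaks lay wholly or partly off the longest transcript. In the MCE list, a peak of 50 bases at chr13:89657362-89657411 was in an exon of a short 3-exon transcript. In the Diff list, 1 peak of 150 bases was in the last exon of a 6-exon transcript and 1 of 125 bases was in a noncoding transcript. These 3 are counted among the peaks and the covered bases of the gene, and only the bases that are also in the longest transcript enter its shares. Another Diff peak, at chr13:89739510-89790197 on the plus strand, carried the symbol Vcan but lay in exons of Gm4117, and it was left out.

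Chondroitin sulfate is attached at serines followed by glycine. Translated from the annotated coding sequence, the longest Vcan protein has 3354 codons and 30 serine-glycine pairs, 7 of them in exon 7 and 21 in exon 8. The codons of 22 pairs lay under a peak in the Diff list, 5 in the rhein list, 1 in the Pre list and 0 in the MCE list. As shares of the 30 pairs these were 73.3%, 16.7%, 3.33% and 0%, close to the shares of coding bases covered in the Diff and rhein lists (70.6% and 15.2%) and below those in the Pre and MCE lists (10% and 7.01%). Not every such pair carries a chain.

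The Vcan peaks of the Diff list, counted over all lengths, were not richer in the m6A core sequence than the uncovered part of the transcript. Within the Vcan peaks, GGAC occurred 4.07 times per kb in the Pre list, 4.17 in the MCE list, 3.22 in the rhein list and 2.44 in the Diff list. Outside the peaks of the same transcript it occurred 2.47, 2.49, 2.54 and 3.24 times per kb, in the same order. The Vcan peaks thus had more GGAC per kb than the uncovered part of Vcan in 3 lists, and less in the Diff list. Peaks of at least 500 bases were not counted apart from the shorter ones, so nothing is said of the long peaks alone. These values rest on few sites: 6, 5, 7 and 22 of them lay under peaks in the Pre, MCE, rhein and Diff lists. All placed peaks of each list held 6.24 to 7.1 GGAC per kb, more than Vcan on either side of its peak borders.

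DRACH was more frequent and set the parts of Vcan less apart, with 24.1 to 29.8 sites per kb within peaks and 24.7 to 26.2 outside. Over all placed peaks it occurred 22 to 23.9 times per kb. The members without Vcan had 7.41, 9.51 and 6.53 GGAC per kb in the Pre, MCE and rhein lists, and none in the 913 bases of their 7 Diff peaks.

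**Figure D3:**
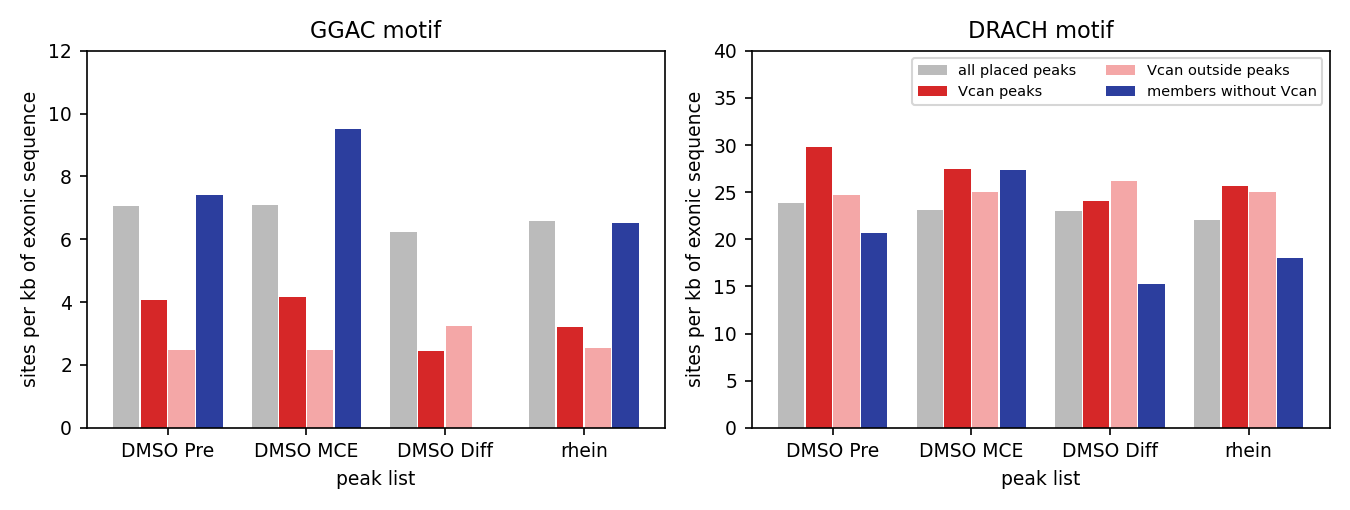
Sites per kb (vertical) of GGAC (left) and DRACH (right) in all placed peaks, in Vcan peaks, in the longest Vcan transcript outside peaks, and in peaks of the other members, for the 4 distinct lists. For GGAC the Vcan bar within peaks is above the bar outside in the DMSO Pre, DMSO MCE and rhein lists and below it in the DMSO Diff list, where the other members have no site.

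Among the chain-extending genes, Chpf, the chondroitin polymerizing factor, had its peaks in different places in different lists. Chpf (ENSMUSG00000032997.16, chr1:75474569-75479307, minus strand) had 1 peak in the Pre list, 1 in the MCE list, none in the Diff list and 3 in the rhein list. The Pre peak was in the 3′ UTR at chr1:75474569-75474768, with a score of 6.38 and the 1948th place of 2824. The rhein list had a peak with the same start and end, with a score of 8.34 and the 1386th place of 3069. In exon 3, the MCE list had a coding peak of 250 bases with 5 GGAC sites at the 557th place of 5128, and within it the rhein list had one of 125 bases with 2 GGAC sites at the 2735th place. The exon 5 peak, found in the rhein list only, was at the 1428th place.

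The rhein list thus held a Chpf peak that matched the Pre list, one that matched the MCE list and one that matched neither. None of the Chpf peaks passed an adjusted p of 1e-10 on the reading of the score given under the processing, and a gene with no peak in a list may lack the mark or lack the reads to call it. The deposited annotation put all Chpf peaks in the 3′ UTR. By the 2 coding transcripts that hold them, those of exons 3 and 5 were in the coding sequence, and in another transcript, ENSMUST00000138683.1, the exon 5 peak lies in the 3′ UTR.

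Chpf2 (ENSMUSG00000038181.16, chr5:24586741-24594556, plus strand), a relative of Chpf in the same complexes, had 2 peaks in the Pre list, 1 in the MCE list, 1 in the Diff list and 2 in the rhein list, all of them coding. The peak over the run shown above was listed at chr5:24591161-24591360 in the Pre and rhein lists, at chr5:24591161-24591385 in the MCE list and, shortened to 100 bases, at chr5:24591286-24591385 in the Diff list. Its scores of 4.27 to 7.51 were low, and in the Diff list it had the last place of all 2944 peaks. A 2nd rhein peak at chr5:24592061-24592135 had a score of 12 and crosses Mir671, a microRNA gene on the same strand.

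Reads in exon 4 of Chpf2 cannot be assigned with certainty. This exon overlaps exons of Smarcd3, a chromatin remodelling subunit gene on the opposite strand, and each of the 5 exon 4 peaks in the 4 lists had a partner on the opposite strand at nearly the same place. For the peak at chr5:24592061-24592135 the partner had a score of 53.6 and the 70th place, above the score of 12 on the Chpf2 strand. The strand setting of the peak calling is not given in the sources used here. The Pre peak at chr5:24589262-24589461 in exon 2 had no such partner.

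Chsy1 (ENSMUSG00000032640.10, chr7:66109515-66173798, plus strand), a chondroitin synthase with both transferase activities, had no exonic peak in the Pre and rhein lists, 1 of 50 bases in the MCE list and 2, of 50 and 75 bases, in the Diff list. All 3 lay in coding exon 2, and the MCE peak at chr7:66125529-66125578 was within the Diff peak at chr7:66125529-66125603. Their scores were 5.59 to 6.7. The top peak of the whole Pre list, with a score of 735, carried the symbol Chsy1 in the deposited annotation, but at chr7:66109540-66109614 it lay on the minus strand, in the antisense gene Gm26827 and across exon sequence of Chsy1. It was left out of the Chsy1 counts, and without a known strand setting its reads cannot be divided between the 2 genes.

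Of the chain-starting enzymes, Csgalnact1 (ENSMUSG00000036356.15, chr8:68356781-68735146, minus strand) had 2 peaks in the Pre list, 2 in the MCE list, none in the Diff list and 1 in the rhein list. A 3′ UTR peak at chr8:68357406-68357630 was the same in the MCE and rhein lists, and the Pre list held both of its ends as 2 peaks of 50 bases. Its scores were 7.4 in the MCE list and 6.72 in the rhein list. A coding peak of 200 bases in exon 4 was in the MCE list only. The deposited annotation gave the 3′ UTR peaks to 1700125H03Rik, although no exon of that gene overlaps them. Csgalnact2 had no peak in any list.

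Chst11 (ENSMUSG00000034612.7, chr10:82985498-83195900, plus strand), a chondroitin 4-O-sulfotransferase, had 1 peak, in the Diff list. It lay in the 3′ UTR at chr10:83191924-83191973, 149 bases after the stop codon at its midpoint. Although only 50 bases long, it had a score of 45.2 and the 70th place of 2944, the best of all member peaks outside Vcan. It held neither GGAC nor DRACH, and the deposited annotation gave it to Slc41a2, which has no exon there.

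The small proteoglycans differed from one another. Dcn (ENSMUSG00000019929.16, chr10:97479609-97518143, plus strand) encodes decorin, which binds collagen fibrils and carries 1 chain, and had 3 placed peaks in the Pre list, 3 in the MCE list, 3 in the Diff list and 2 in the rhein list. They covered 650, 838, 638 and 175 exonic bases, so the rhein list had the least. A coding peak from exon 3 to exon 6 had 375 exonic bases in the Pre list and 500 in the MCE list. In the same part of the gene the Diff list had 50 bases in exon 4, with a score of 22.5, and the rhein list had 75 bases across exons 4 and 5. The Diff list had a further peak of 50 bases in exon 2, outside the MCE peaks and the placed Pre peaks. It overlapped a Dcn peak of the Pre list that could not be placed. The end of the 3′ UTR lay under a peak of 50 bases in the Pre list, 138 in the MCE list and 538 in the Diff list, and under none in the rhein list.

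Some Dcn peaks could not be placed, because no 1 transcript held both of their ends in exons. There were 2 of these in the Pre list, 2 in the MCE list, none in the Diff list and 1 in the rhein list, so that Dcn peaks at the 5′ end are more frequent in the first 2 lists than the placed counts show. The rhein list had 1 placed peak of 100 bases in the 5′ UTR. One Dcn peak of the Pre list, of 225 exonic bases, was placed on a noncoding transcript, where the MCE list had a coding peak of 200 bases at nearly the same coordinates. Biglycan (Bgn), which is related to decorin, and Cspg4, a transmembrane proteoglycan, had no peak in any list.

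**Figure D4:**
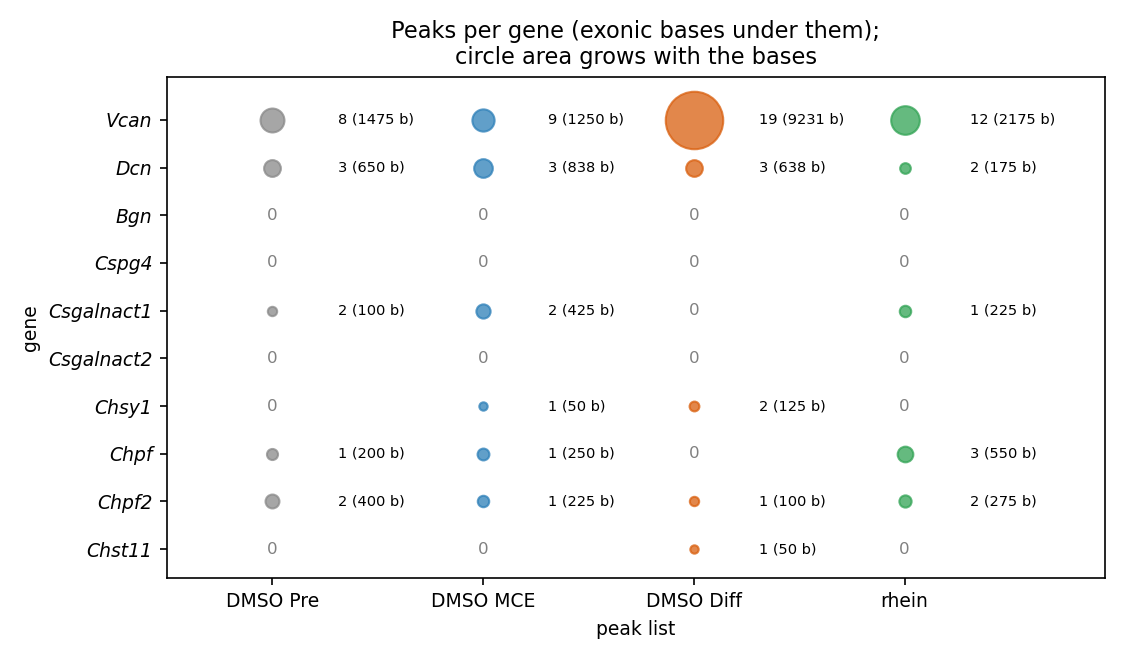
Number of exonic peaks of each member (rows) in each distinct list (columns), with the exonic bases under them in brackets; the circle area grows with the bases. Vcan in the DMSO Diff list has 19 peaks over 9231 bases, and no other circle exceeds 2175 bases.

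Between 34.6% and 68.8% of the member peaks of a list were shared with another list. A peak counted as shared when the other list had a peak, in the same orientation, over 1 or more of its exonic bases, and the 95% Wilson intervals given here cover counting error only and treat peaks of 1 gene as separate. Of the member peaks of the Pre list, 10 of 16 were shared with the MCE list (62.5%, interval 38.6% to 81.5%), against 44.8% of all Pre peaks. Of the MCE list, 9 of 17 member peaks were shared with the rhein list (52.9%, 31% to 73.8%), against 32% of all MCE peaks. Of the rhein list, 9 of 20 were shared with the MCE list (45%, 25.8% to 65.8%) and 13 of 20 with the Diff list (65%, 43.3% to 81.9%), against 53.3% and 37.6% of all rhein peaks.

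The last value came from Vcan. All 12 Vcan peaks of the rhein list were shared with the Diff list, against 1 of the 8 rhein peaks in other members, the Chpf2 peak in exon 4. In the other direction, 8 of 19 Vcan peaks of the Diff list and 1 of 7 peaks of other members were shared with the rhein list. Over all Diff peaks this share was 40%, near that of Vcan (42.1%). Likewise, all 8 Vcan peaks of the Pre list were shared with the Diff list, against 3 of 8 in other members. The latter share (37.5%) was near the 38.2% of all Pre peaks. Peaks that cover most of a transcript overlap others easily, and this was not corrected for.

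Other genes of the pathway were counted from lists of 82 genes. These include 20 heparan sulfate genes taken for comparison, so the shares are not those of chondroitin sulfate genes alone. With an exonic peak there were 16 in the Pre list (19.5%), 27 in the MCE list (32.9%), 17 in the Diff list (20.7%) and 18 in the rhein list (22%). Over all protein-coding genes the shares were 6.83%, 12.4%, 6.61% and 7.28%, so the MCE share, from the longest list, was the highest there too. Of 7 linker enzymes, B3gat3, which adds the last sugar of the linker, had a peak in all 4 lists. Of 12 genes of sulfation and epimerisation, 6 had a peak in the MCE list and 2 or 3 in the shorter lists, with Dse, a dermatan sulfate epimerase gene, in all 4; the MCE share of all genes was higher as well, and nothing particular to these 12 is read from it. None of 7 other small leucine-rich proteoglycan genes had a peak in any list. Of the 20 heparan sulfate genes within the 82, 6, 8, 3 and 6 had a peak in the Pre, MCE, Diff and rhein lists.

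Of the genes around versican, Fbln2, a fibulin that binds versican, had the most peaks over the 4 lists, with 5 in the Pre list and 7 in each of the MCE, Diff and rhein lists. Its covered bases were 450, 900, 775 and 1775 in the Pre, MCE, Diff and rhein lists, so Fbln2 was highest in the rhein list, unlike Vcan. The versican protease gene Adamts1 had 3, 6, 8 and 4 peaks over 1000, 650, 1975 and 850 bases, in the same order, and was highest in the Diff list like Vcan. Adamts5, another versican protease gene, went the other way, with 7, 3, 1 and 0 peaks. Has2, a hyaluronan synthase gene, had 7 peaks in the MCE list, 2 in the rhein list and none in the Pre and Diff lists.

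The syndecan genes Sdc4 and Sdc1, whose products can carry chondroitin sulfate, had 10 and 7 peaks over the 4 lists. Tgfbr3, which encodes betaglycan, had 275 covered bases in the Pre list and 1785 in the Diff list and none in the MCE and rhein lists. Chst14, a dermatan sulfate sulfotransferase gene, had 5 peaks, 3 of them in the MCE list. Fibrillin-1 (Fbn1), which binds versican, had 5 peaks, with none in the Pre list. Among heparan sulfate genes, Hs6st1 had 13 peaks, and Ext1 and Hs2st1 had 5 each.

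Long peaks were also found in other genes. The longest peak of any other gene was in Spen in the Pre list (8875 exonic bases), in Epb41l2 in the MCE list (2331) and the rhein list (2206), and in the collagen gene Col6a1 in the Diff list (1300). Spen was followed by Nup153 (1223) and Trip12 (1050) in the Pre list, and Epb41l2 by Ncor1 (1966) and Smc1a (1797) in the MCE list and by Rrbp1 (1300) and Chd3 (1008) in the rhein list. In the Diff list Pdgfra (1200) and Errfi1 (1050) came after Col6a1. By score within the Diff list, the longest Vcan peak had the 2nd place, that of Col6a1 the 8th and that of Errfi1 the 33rd. The Pdgfra peak had the 2010th place there. The Spen peak had the 405th place of the Pre list.

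By the sum over the 4 lists of the absolute difference in covered bases, the genes most like Vcan were Nid1 (7749 bases apart), Gas1 (8095) and Sned1 (8415). Nid1, which encodes the basement membrane protein nidogen-1, had 975, 1868, 2825 and 1950 covered bases in the Pre, MCE, Diff and rhein lists. Gas1, a growth arrest gene, had 1800, 1200, 1900 and 1786, and Sned1, which encodes an extracellular matrix protein, had 1050, 175, 4241 and 250. All 3 were highest in the Diff list, for Gas1 only by 1900 against 1800 in the Pre list. Closeness to Vcan, with its 9231 bases in the Diff list, favours such genes, so nothing is read from this. The differences are nearly as large as the Vcan value itself, so no gene followed it closely. The excess of the Diff list over the next highest list was 7056 bases for Vcan, 3191 for Sned1, 2925 for complement C3, 1883 for Col6a1 and 1650 for Fkbp5, the 5 largest of all genes.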

How the data were processed

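The authors trimmed reads with Trim Galore (0.6.5), aligned them to mm10 with HISAT2 (2.1.0), and filtered them with Picard (2.23.5, duplicates) and SAMtools (1.9, mapping quality). They called m6A peaks with the defaults of exomePeak2 and took gene symbols and parts from ChIPseeker (1.26), per their methods and processing notes. The deposited peak lists hold start, end, strand, annotation and a score under a header that reads as a log2 fold change. The lowest scores, 4.19 to 4.32, equal adjusted p-values of 0.0549 to 0.05 on a −log2 scale, so the column was used as a score for ranks, and no fold was taken from it. Which input entered which call was not given in the sources used here.

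Starts and ends were used as 1-based mm10 coordinates. Of the placed peaks, 97.3% to 98.3% had an exonic length divisible by 25, which is how exomePeak2 steps along exons. Peaks were placed with GENCODE M21 in Python (see the gene rule in the report): a coding transcript came before a noncoding one, and the longest first. The region of a peak is that of its midpoint. Placement was tested on simulated data. GGAC and DRACH were searched on GENCODE transcript sequences. No test was run, since each condition had 1 sample, and the depth behind the peaks is unknown. Shares have 95% Wilson intervals. Alternatives were any exon overlap of 1 base, the listed symbol, an adjusted p of 1e-10, lists of equal length (2824 peaks), joined peaks, other definitions of sharing, spans, and windows of 100 bases for motifs.

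The members and lists were chosen with earlier results of these data known. Named were all 10 members, the 12 other pathway genes with most peaks, the 3 genes with the longest peak per list, the 3 genes nearest to Vcan, and genes whose symbol a member peak carried. B3gat3, Dse, C3 and Fkbp5 were added after their values were seen.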

Additional observations from a re-analysis of the deposited data

Results flagged for a closer look

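The difference between rhein and DMSO had opposite signs at the MCE and differentiation stages for 2 of the 10 genes. The difference was not tested, each condition had 1 sample, and the rhein side is 1 result in both comparisons, so the opposite signs restate only that the rhein value lies between both DMSO values. Because the 2 rhein lists are nearly identical (3067 shared peaks), 1 of them may not describe the stage on its label, and a rhein minus DMSO value may then not compare cells of 1 stage. For Vcan, rhein minus DMSO was 3 peaks and 925 exonic bases at the MCE stage and -7 peaks and -7056 exonic bases at the differentiation stage. For Csgalnact1 it was -1 peak and -200 exonic bases at the MCE stage and 1 peak and 225 exonic bases at the differentiation stage.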

How the results depend on the processing

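No paired analysis was possible because each condition had 1 sample and no test was run. The strictest change was to keep only peaks past an adjusted p of 1e-10. Members with a peak then numbered 0, 1, 2 and 1 in the Pre, MCE, Diff and rhein lists (from 5, 6, 5 and 5). Vcan peaks numbered 0, 4, 8 and 3 (from 8, 9, 19 and 12). Of all peaks, 68 of 2824, 96 of 5128, 102 of 2944 and 151 of 3069 passed this limit, in the same order. Counted by the listed symbol, 3 members had a peak in the Diff list and 3 in the rhein list. Chpf2 then had 0 peaks in the MCE, Diff and rhein lists, and with lists of equal length 0 in the MCE and Diff lists. Vcan had the most peaks in the Diff list under each alternative run on its peak count. Ranked among coding transcripts only, the best coding peak of Vcan took the 16th place in the MCE list (from the 33rd) and the 1st in the Diff list (from the 2nd). Measured from start to end with introns, the longest Vcan coding peak of the Diff list was 17083 bases (from 1775). With identical start and end required, 17.6% of the MCE member peaks were shared with the rhein list and 15% in the other direction, and 0% between the other 7 ordered pairs of lists compared. The Pre and rhein lists were not compared in this way, although they held identical peaks in Chpf and Chpf2. Leaving out Vcan, an alternative chosen after seeing the data, gave 12.5% of rhein peaks shared with the Diff list (from 65%), 14.3% in the other direction (from 34.6%) and 37.5% of Pre peaks shared with the Diff list (from 68.8%). Over all peaks these shares were 37.6%, 40% and 38.2%. The missing depth limits all absences from a list.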
